A study of Mus musculus with 22 samples.

Results

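The livers of germ-free mice were compared with those of conventional mice from the Jackson vendor by poly(A) RNA sequencing. The comparison held 8 of the 22 libraries of the study, GF 1 to 4 and JAX 1 to 4. It used the genes with a level of at least 1 RPKM (reads per kilobase of transcript, scaled to the mapped reads of the library) in 4 or more of these 8 libraries. These were 11471 of the 23909 genes with a symbol, and the other 12438 did not pass. Hoxb5 and Cep170 lay just inside that limit, where the value that decides, the 4th highest of the 8, was 1.0 and 1.002 RPKM, and Tmem88b and Tspan8 just outside it, at 0.999 and 0.998 RPKM.

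All 22 libraries came from the liver of male C57BL/6 mice that the labels call fasted, and no age or substrain is given. JAX (n = 4) and TAC (n = 4) were conventional mice of the vendors Jackson and Taconic. GF (n = 4) were germ-free mice whose vendor is not given. Further germ-free mice received cecal material of JAX (GF_JAX, n = 5) or TAC (GF_TAC, n = 5) and were kept for 4 weeks. A 16 h overnight fast is stated for those inoculated mice. GF and JAX therefore differ in microbes, and possibly in breeder, housing, diet and substrain, which cannot be told apart here. No label says that each library comes from its own mouse, so the tests speak of the variation among these libraries, part of which may be technical.

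The liver receives the blood of the gut through the portal vein and is the first organ to meet bacterial products and metabolites. Gut bacteria deconjugate and dehydroxylate bile acids, ferment fibre to short-chain fatty acids and degrade drugs and plant compounds. Liver cells sense these signals through nuclear receptors such as FXR, CAR, PXR and PPAR alpha and through Toll-like receptors. Cholesterol and fatty acid synthesis are controlled by the SREBP factors, which respond to sterol and to feeding.

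The GF and JAX libraries differed in how RPKM depended on transcript length. The slope of log2(RPKM + 1) per log2 base of length lay between -0.626 and -0.535 in the 4 JAX libraries and between -0.882 and -0.69 in the 4 GF libraries. All 4 TAC libraries and GF_JAX 1 and 4 had the shallow slope, at -0.529 and -0.494 in these 2. GF_JAX 2, 3 and 5, with -0.759, -0.864 and -0.812, and all GF_TAC libraries had the steep slope. Slope type and group therefore coincide in GF and JAX, and both types occur within 1 group only in GF_JAX. The depth was 2.26 to 3.75 M counted reads in JAX and 1.39 to 3.49 M in GF. Correlations of log2(RPKM + 1) over genes were 0.966 to 0.983 within the groups and 0.942 to 0.965 between them. Of 10 hepatocyte markers none passed in limma (1 higher and 1 lower at an unadjusted p under 0.05, 5 higher when GF 2 was left out), with summed levels of 3811 to 5926 RPKM in JAX and 4149 to 8854 in GF. The list holds Alb, Apoa1 and Apoe, whose RPKM was lower in deeper libraries (given below). The count and the sums therefore cannot show whether hepatocyte RNA differed.

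**Figure D1:**
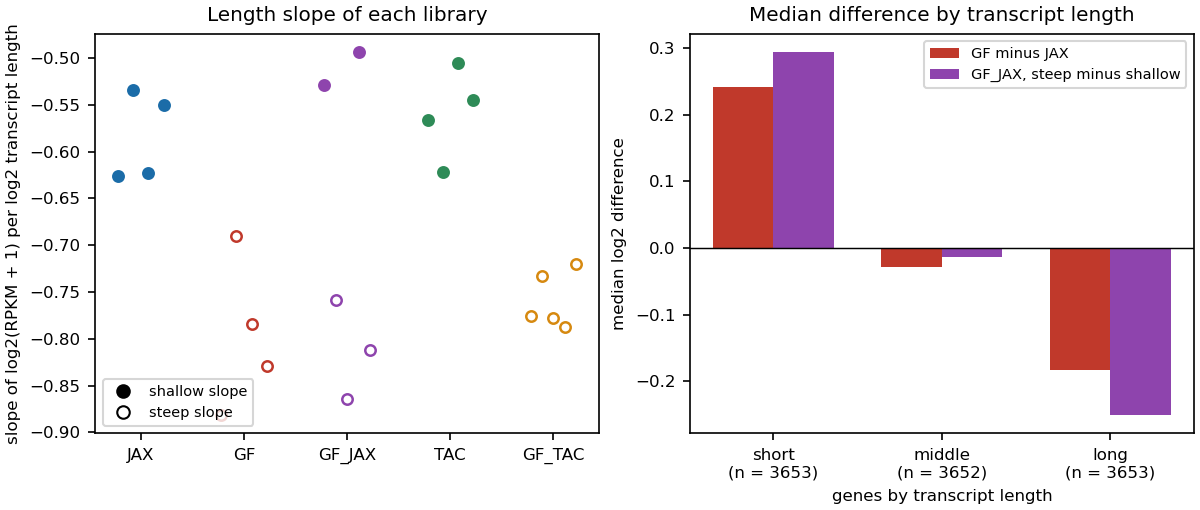
Left, slope of log2(RPKM + 1) per log2 transcript length in each of the 22 libraries, with filled points for the shallow and open points for the steep slope. Right, median log2 difference of short, middle and long transcripts between GF and JAX (red) and between the 3 steep and 2 shallow GF_JAX libraries (purple): in both, short transcripts are higher (0.24 and 0.29) and long ones lower (-0.18 and -0.25).

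In short transcripts, up to 2242 bases, 971 genes were higher in GF and 205 lower. In long ones, from 3898 bases, 167 were higher and 956 lower. The same pattern stood within GF_JAX: steep libraries exceeded shallow ones by a median of 0.29 (log2) in short transcripts and fell below them by a median of -0.25 in long ones. The findings were therefore set beside GF_JAX 1 and 4, which have the slope of JAX, and beside a fit of 13 libraries (GF, JAX and GF_JAX) with slope type as a term. In that fit the effect of slope type is estimated from 2 against 3 GF_JAX libraries, so that differences among those mice enter it. Its median standard error was 0.246 against 0.142 (log2) in the fit of 8 libraries.

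Of 11471 genes, 3405 (29.7%) differed between GF and JAX at a limma adjusted p under 0.05. In GF 1626 (14.2%) were higher and 1779 (15.5%) lower, and 410 changed by more than 2-fold. Without JAX 4 the count was 2051, with 977 higher and 1074 lower, and it ranged up to 4592 with another library left out. After rescaling each library to a common sum the split was 706 higher (6.15%) and 2424 lower (21.1%), with a shift of the median gene of -0.19 (log2). The libraries of GF and JAX did not overlap in 2809 of the calls and in 3339 (29.1%) of all genes. Of the 3405 calls, 646 (19.0%) lay on the GF side of the midpoint in both GF_JAX 1 and 4, against 24.4% of all tested genes. Another 1286 (37.8%, against 20.4%) lay on the JAX side there and on the GF side in GF_JAX 2, 3 and 5. In 50 calls (1.47%, against 3.78%) all 5 GF_JAX libraries lay on the JAX side, and the other 1423 were mixed. Counts on the GF side given for lists below stand against the 19.0% of all calls.

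With slope type as a term 88 genes (0.767%) passed. Of these, 72 (0.628%) also passed in the fit of 8 libraries in the same direction, 26 (0.227%) higher and 46 (0.401%) lower in GF. The libraries did not overlap in 71 of the 72, and 67 passed with any 1 of the 8 libraries left out. After rescaling to a common sum 63 passed in the same direction, and after a correction for the length slope all 69 with a known length passed. In 67 of the 72 both GF_JAX 1 and 4 lay on the GF side. GF_JAX entered the fit that chose the 72, and all 72 were also calls of the 8 libraries. These counts therefore describe the 72 genes and are not separate support for them. Genes named below did not pass with slope type as a term unless this is stated.

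**Figure D2:**
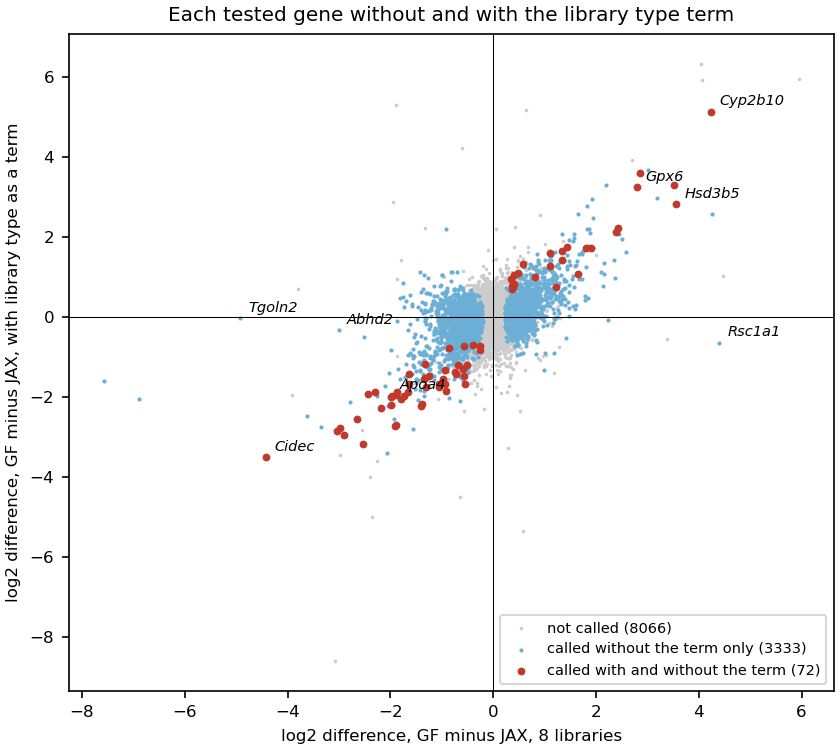
Log2 difference GF minus JAX of the 11471 tested genes in the fit of 8 libraries (horizontal) and in the fit of 13 libraries with slope type as a term (vertical). The 72 genes that passed in both (red) have the same sign on both axes, and some lie well off the diagonal, on either side of it. Tgoln2 and Abhd2 lie near 0 on the vertical axis, and Rsc1a1 lies below 0 there.

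Among the genes lower in GF, Cidec had the smallest p. It encodes a lipid droplet protein that drives the growth of large droplets. Its level was 103, 105, 105 and 113 RPKM in JAX 1 to 4 and 4.71, 2.25, 3.93 and 6.11 RPKM in GF 1 to 4. The groups were far apart, with a log2 difference of -4.41 ± 0.19 (SE), a 21.3-fold lower RPKM + 1 in GF, and a limma adjusted p of 1.87e-06. In GF_JAX 1 and 4 it was 14.1 and 6.36 RPKM, 5.79, 5.44 and 3.07 RPKM in GF_JAX 2, 3 and 5. All 5 inoculated livers lay far below JAX. TAC had 48.9, 22, 66.4 and 55.4 RPKM, between JAX and GF. The log2 difference was -3.51 ± 0.41 with slope type as a term (limma adjusted p = 0.00224).

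Apoa4 encodes an apolipoprotein of the gut and liver that is made in large amounts when fat accumulates. It was at 625, 402, 497 and 529 RPKM in JAX and at 115, 112, 133 and 155 RPKM in GF, a log2 difference of -1.98 ± 0.15 (limma adjusted p = 3.46e-05). No GF library came near a JAX library. The inoculated livers GF_JAX 1 and 4 had 254 and 147 RPKM and GF_JAX 2, 3 and 5 had 217, 154 and 211 RPKM, while TAC had 538 ± 72.5 RPKM (SD, n = 4). It passed both fits.

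Lepr, the leptin receptor, was at 3.97, 7.0, 7.59 and 7.45 RPKM in JAX and at 0.989, 1.14, 1.07 and 0.733 RPKM in GF. JAX 1 was the lowest JAX library and still above every GF library. The log2 difference was -1.89 ± 0.19 (limma adjusted p = 0.00018). It was 0.709 and 1.19 RPKM in GF_JAX 1 and 4, and TAC had 1.7 ± 0.108 RPKM (SD, n = 4), which is nearer to GF than to JAX. Lepr passed both fits.

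The 10 largest non-overlapping decreases also held Gal3st1, Cntnap1, Cgref1, Lamb3 and Wfdc2, which passed both fits. Gal3st1, which makes sulfatide, was at 12.4, 13.6, 14.3 and 26.5 RPKM in JAX and 2.18, 0.918, 0.554 and 0.923 RPKM in GF, a log2 difference of -3.04 ± 0.27 (limma adjusted p = 7.59e-05). Cntnap1, a contactin-associated membrane protein, was at 10.5, 8.14, 11.9 and 13.9 RPKM in JAX and 0.0853, 0.553, 0.607 and 0.885 RPKM in GF (-2.99 ± 0.21, limma adjusted p = 2.41e-05). In both genes the groups were well apart, and GF_JAX 1 and 4 stood at 2.64 and 2.24 and at 1.45 and 0.738 RPKM. Lamb3, a laminin chain, had 19.2, 28.7, 25.8 and 24 RPKM in JAX and 1.96, 3.27, 2.57 and 4.62 RPKM in GF. Its level in GF_JAX 1 and 4 was 3.67 and 3.33 RPKM, and in TAC 11.3 ± 4.45 RPKM (SD, n = 4). Cgref1 and Wfdc2 differed by -2.91 ± 0.29 and -2.54 ± 0.19 (log2), with limma adjusted p of 0.000161 and 2.82e-05.

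Impa2, an inositol monophosphatase, was picked from the 72 genes after its values were seen. It was at 24.4, 30.1, 32.1 and 31.8 RPKM in JAX and 4.48, 4.84, 5.97 and 5.53 RPKM in GF, with 11.9 and 5.92 RPKM in GF_JAX 1 and 4. The groups did not overlap, and the limma adjusted p was 6.08e-06.

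**Figure D3:**
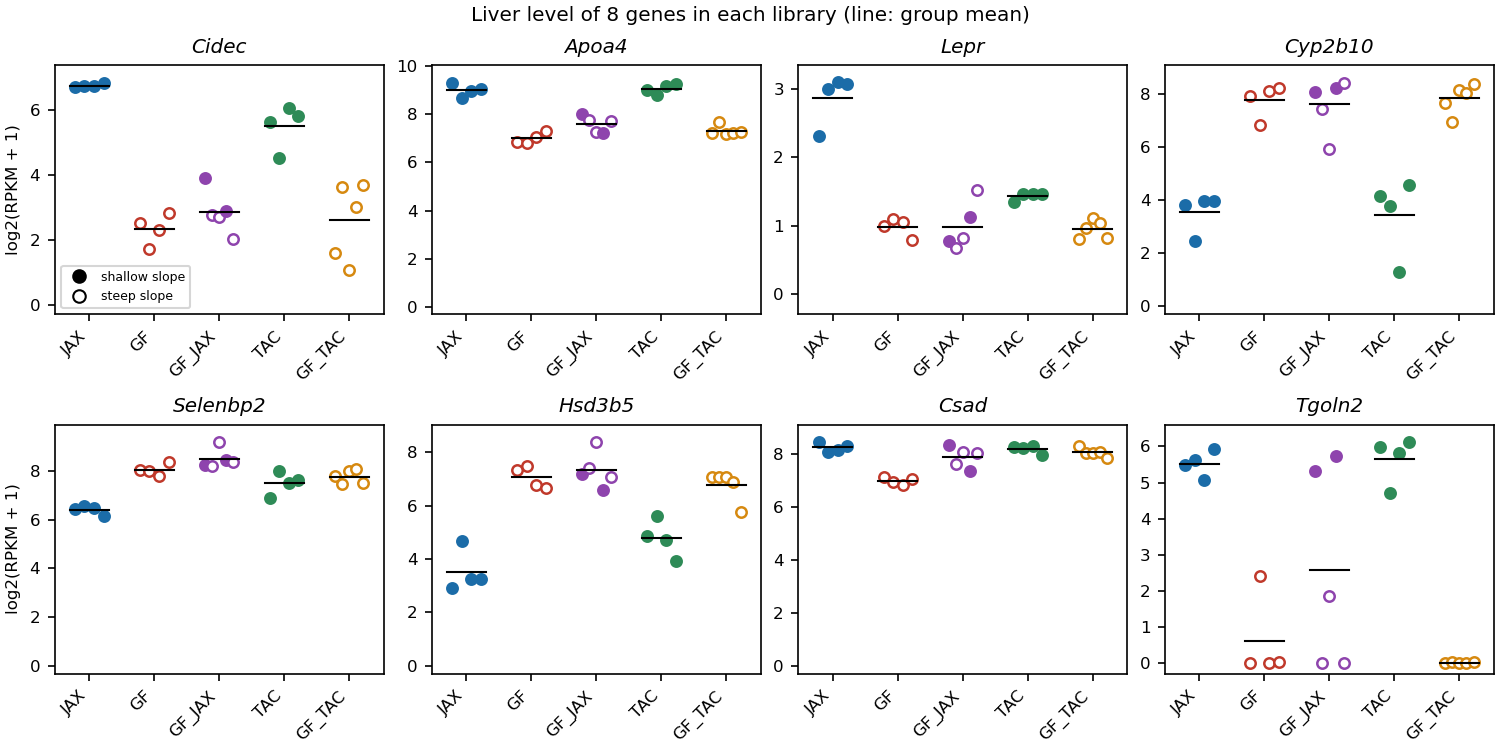
Level of 8 genes as log2(RPKM + 1) in each library by group, filled for the shallow and open for the steep length slope, with a line at the group mean. Cidec, Apoa4, Lepr, Cyp2b10, Selenbp2 and Hsd3b5 lie on the GF side of the midpoint in GF_JAX 1 and 4, Cidec and Apoa4 above every GF library in GF_JAX 1, Csad in GF_JAX lies between GF and JAX or at the JAX level, and Tgoln2 follows the slope type.

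Enzymes of the response to foreign compounds were among the genes that rose in both fits. Cyp2b10, the classical target of the receptor CAR, was at 13.1, 4.48, 14.5 and 14.8 RPKM in JAX and at 242, 115, 279.6 and 298 RPKM in GF. The lowest GF library was far above the highest JAX library. The log2 difference was 4.23 ± 0.37, a 18.8-fold higher RPKM + 1 in GF (limma adjusted p = 7.54e-05). GF_JAX 1 and 4 had 272 and 300.4 RPKM and GF_JAX 2, 3 and 5 had 172, 60.0 and 341 RPKM, against 13.5 ± 9.07 RPKM (SD, n = 4) in TAC. It differed by 5.13 ± 0.77 with slope type as a term (limma adjusted p = 0.0064).

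Of 27 CAR and PXR targets 21 were tested, and 9 rose and none fell in limma (12 and 0 at an unadjusted p under 0.05), against 14.2% of all genes higher. Without GF 2, 14 rose, and after rescaling to a common sum 7 rose and 3 fell. Their median log2 difference was 0.34, against 0.01 over all tested genes. All 9 lay on the GF side in GF_JAX 1 and 4, and 4 passed with slope type as a term. These 4 were Cyp2b10 and the P450 enzymes Cyp2c29, Cyp2c54 and Cyp2c55. Cyp2c55 was at 1.57, 3.25, 1.13 and 1.65 RPKM in JAX and 31.6, 18.9, 21.7 and 10.6 RPKM in GF (2.86 ± 0.30, limma adjusted p = 0.000195), without overlap. Cyp2c54 was at 117, 105, 124 and 113 RPKM in JAX and 331, 222, 278 and 358 RPKM in GF (1.34 ± 0.14, limma adjusted p = 0.000226). Cyp2c29, picked after its values were seen, was at 214 ± 22 RPKM in JAX and 590.4 ± 144 in GF (SD, n = 4 each). Members of the Cyp2c family share sequence, so their reads may be split uncertainly. Cyp3a11, the best known PXR target, was at 603, 387, 467 and 524 RPKM in JAX and 477, 282, 467 and 514 RPKM in GF, and the groups overlapped (-0.20 ± 0.21, limma adjusted p = 0.485). After multiplication by relative depth, Cyp3a11 reached 80.3% of the level shared by the most abundant genes (given below) in its highest of the 22 libraries. The overlap therefore cannot show whether Cyp3a11 differed. Nr1i3, which encodes CAR, was picked after its values were seen and differed by 0.41 ± 0.16 (limma adjusted p = 0.0717).

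Among 21 glutathione S-transferases, which conjugate electrophiles, 8 rose and 1 fell, against 14.2% of all genes higher and 15.5% lower, and 15 rose when GF 2 was left out. Without GF 1, 3 fell, and without JAX 3, 2 fell. Gstm2 was at 72.8, 75.6, 71.2 and 65.3 RPKM in JAX and 236, 175, 185 and 162 RPKM in GF (1.39 ± 0.12, limma adjusted p = 5.41e-05). Gstm3, also on the list of CAR and PXR targets and picked after its values were seen, was at 30.1, 36.6, 33.4 and 33.8 RPKM in JAX and 236, 136, 135 and 70.1 RPKM in GF. GF 4 was the lowest of the GF libraries in both genes, and neither gene overlapped with JAX. The median of the list was 0.42 as deposited and 0.16 after correction for the length slope. Gstt3, picked in the same way, passed with slope type as a term (1.28 ± 0.27, limma adjusted p = 0.0429).

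Of 16 UDP-glucuronosyltransferases, which attach glucuronic acid, 4 rose and 2 fell (14.2% and 15.5% over all genes), or 1 fell without GF 3, JAX 1, JAX 2 or JAX 4. Ugt2b34 rose by 0.38 ± 0.08 and passed both fits (limma adjusted p = 0.00679 and 0.0251). Ugt1a9 was at 59.1, 52.8, 52.5 and 52.9 RPKM in JAX and 7.99, 12.5, 13.7 and 19.8 RPKM in GF (-1.99 ± 0.20, limma adjusted p = 0.00017), but -0.83 ± 0.48 with slope type as a term (limma adjusted p = 0.504). The Ugt1a transcripts share their last exons, so their levels are uncertain. Among 7 tested targets of the aryl hydrocarbon receptor AHR, 3 rose, against 14.2% of all genes, and none fell in limma (1 lower at an unadjusted p under 0.05, and 1 past the threshold without GF 2). Cyp1a2, a hepatic P450 of that list, was at 244, 206, 218 and 211 RPKM in JAX and 503, 379, 429 and 540.5 RPKM in GF (1.06 ± 0.14, limma adjusted p = 0.000682), with 424 and 561 RPKM in GF_JAX 1 and 4. Of 8 sulfotransferases, which attach sulfate, 4 rose, against 14.2% of all genes, and none fell in limma (6 and 0 at an unadjusted p under 0.05). Of the 4, 1 lay on the GF side in both GF_JAX 1 and 4 and 3 were mixed. Sult1e1, the estrogen sulfotransferase, was listed at 0 in 3 JAX libraries and at 0.823 RPKM in JAX 3, against 11.7, 4.93, 14.5 and 9.91 RPKM in GF. It was 0.443 and 1.2 RPKM in GF_JAX 1 and 4, near JAX, and 3.04, 0 and 1.25 RPKM in GF_JAX 2, 3 and 5.

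Among the lists with 8 or more tested genes, cholesterol synthesis had the highest median. Of its 25 genes 23 were tested, and 18 rose and none fell in limma (18 and 0 at an unadjusted p under 0.05), against 14.2% of all genes higher. The median log2 difference was 0.99, against 0.01 over all tested genes. The median was 1.15 with slope type as a term, 0.95 after the length correction and 0.78 after rescaling to a common sum. With any 1 library left out 15 to 18 rose. With slope type as a term all 23 differences were above 0, but none of the 23 passed in limma (17 at an unadjusted p under 0.05). In GF_JAX 1 and 4, 12 of the 18 lay on the GF side in both. Hmgcs1, an early enzyme of the pathway, was listed at 0 in all 22 libraries and was not tested.

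Mvd, which makes isopentenyl diphosphate, was at 5.91, 10.1, 7.06 and 5.46 RPKM in JAX and 64.2, 42.9, 46.6 and 25.6 RPKM in GF (2.46 ± 0.25, limma adjusted p = 0.000177). Fdps, the farnesyl diphosphate synthase, was at 94.2, 73.8, 75.3 and 77.6 RPKM in JAX and 378, 286, 235 and 203 RPKM in GF (1.73 ± 0.17, limma adjusted p = 0.000161). Msmo1, a sterol methyl oxidase, was at 39.5, 27.5, 30.0 and 30.9 RPKM in JAX and 169, 144, 119 and 80.6 RPKM in GF (1.93 ± 0.20, limma adjusted p = 0.000182). In these genes GF 4 was the lowest GF library and was still above every JAX library. In GF_JAX 1 and 4 the levels were 17.4 and 34.7 RPKM for Mvd, 204 and 229 RPKM for Fdps and 83.1 and 134 RPKM for Msmo1.

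Sqle, the squalene epoxidase, and Idi1, an isomerase, were picked after their values were seen. Sqle was at 9.27, 9.21, 8.86 and 9.37 RPKM in JAX and 61.1, 67.7, 42.6 and 24.4 RPKM in GF (2.20 ± 0.25, limma adjusted p = 0.000338). The 5 GF_JAX livers spread over the whole range, with 38 and 59.6 RPKM in GF_JAX 1 and 4 and 8.2, 60.5 and 19.9 RPKM in GF_JAX 2, 3 and 5. GF_JAX 2 was just below the JAX level, and it was likewise lowest of the 5 for Idi1, with 67.4 and 95.5 RPKM in GF_JAX 1 and 4 and 14.3, 85.8 and 47.8 RPKM in GF_JAX 2, 3 and 5. With slope type as a term Sqle differed by 3.29 ± 0.73 (limma adjusted p = 0.0522) and Idi1 by 2.94 ± 0.66 (limma adjusted p = 0.0536). TAC 2 likewise stood apart from the other TAC libraries, with 14.7, 59.6, 13.6 and 9.08 RPKM of Sqle in TAC 1 to 4.

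Srebf2, the factor itself, Hsd17b7 and Stard4, a sterol carrier, were picked after their values were seen and did not pass. Srebf2 differed by -0.02 ± 0.14, Hsd17b7 by -0.14 ± 0.13 and Stard4 by 0.05 ± 0.28, with limma adjusted p between 0.426 and 0.923.

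**Figure D4:**
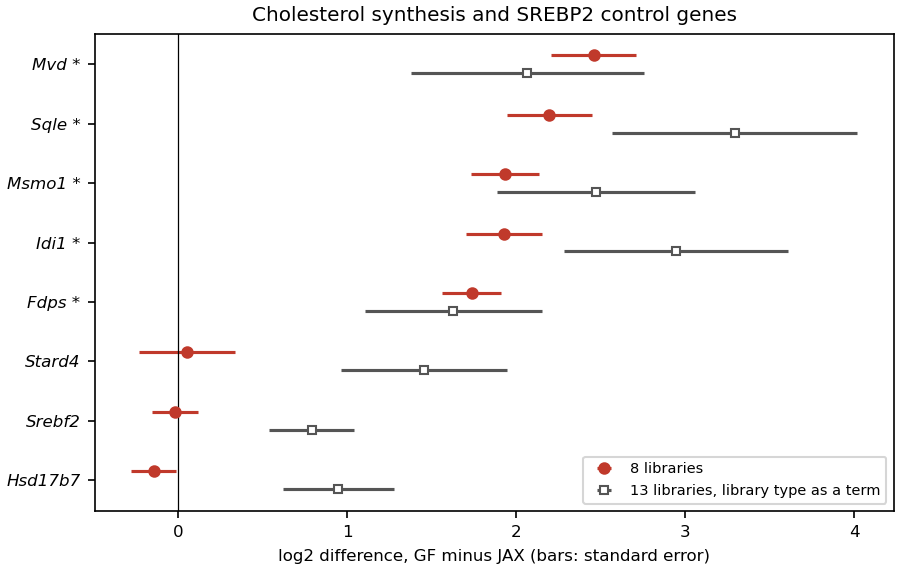
Log2 difference GF minus JAX with its standard error for the 8 cholesterol genes described, from 8 libraries (red) and from 13 libraries with slope type as a term (open squares). An asterisk marks the 5 genes that passed in the fit of 8 libraries, Mvd has the highest difference there (2.46), and the 3 genes without one (Stard4, Srebf2 and Hsd17b7) lie near 0 in red but above 0 in the squares.

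The start regions of these genes were read from RefSeq (GRCm38.p6), 250 bases before to 50 after each start, since 18 of the tested genes rose. Of the 25 genes 16 had an entry. The CCAAT box, which binds the factor NF-Y, was searched as CCAAT on both strands. It was found at 1 or more starts of 16 of the 16 genes, against 41.1% of the 27025 genes in the table. Counted by start, it was found in 84.2% of 19 regions, against 37.4% of all regions. The 16 genes included Srebf2 and Hsd17b7, which did not pass, and Hmgcs1, which was not tested. The box therefore did not set apart the genes that rose. The sterol element form TCACNCCAC, on both strands, was found in 1 of the 16, Hmgcs1, against 1.44% of genes. The regions of 3 genes that rose are shown, with each CCAAT or its reverse complement ATTGG in capitals, from chr13:8885356-8885655 (plus strand) for Idi1, chr8:64733529-64733828 (minus strand) for Msmo1 and chr8:122443373-122443672 (minus strand) for Mvd.
Idi1: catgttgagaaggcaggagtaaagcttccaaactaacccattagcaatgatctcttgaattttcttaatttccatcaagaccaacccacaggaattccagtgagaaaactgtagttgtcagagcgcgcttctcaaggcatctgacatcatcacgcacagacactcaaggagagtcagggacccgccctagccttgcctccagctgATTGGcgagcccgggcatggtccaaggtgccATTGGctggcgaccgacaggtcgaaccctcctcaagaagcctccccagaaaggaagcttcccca
Msmo1: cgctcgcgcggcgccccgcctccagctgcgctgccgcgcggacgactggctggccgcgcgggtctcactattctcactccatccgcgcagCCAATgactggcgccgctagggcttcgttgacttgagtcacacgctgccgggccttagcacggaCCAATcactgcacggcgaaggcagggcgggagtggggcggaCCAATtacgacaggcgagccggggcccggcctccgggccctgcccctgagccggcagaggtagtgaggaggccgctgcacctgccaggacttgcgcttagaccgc
Mvd: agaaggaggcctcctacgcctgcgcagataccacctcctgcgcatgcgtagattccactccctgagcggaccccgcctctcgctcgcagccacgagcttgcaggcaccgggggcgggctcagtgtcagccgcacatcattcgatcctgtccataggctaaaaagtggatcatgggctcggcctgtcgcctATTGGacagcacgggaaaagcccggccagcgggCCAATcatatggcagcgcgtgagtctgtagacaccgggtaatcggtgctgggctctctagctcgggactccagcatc

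Of 10 sterol export genes 3 were higher and 4 lower, against 14.2% and 15.5% of all genes. Of these calls 2 lay on the GF side in both GF_JAX 1 and 4. In 1 all 5 GF_JAX libraries lay on the JAX side, 2 followed the slope type and 2 were mixed. Abcg5 and Abcg8 form the transporter that moves sterols into bile. Abcg5 was at 47.8, 50.3, 47.6 and 49.7 RPKM in JAX and 80.2, 72.3, 87.9 and 88.1 RPKM in GF (0.73 ± 0.08, limma adjusted p = 0.000297). Abcg8 was at 38.3, 47.8, 49.7 and 49.5 RPKM in JAX and 75, 86.6, 80.0 and 88.1 RPKM in GF (0.82 ± 0.10, limma adjusted p = 0.000443). Both were apart between the groups, with 82.2 and 101 and 88.7 and 105 RPKM in GF_JAX 1 and 4. Pltp, the phospholipid transfer protein, fell from 158 ± 15.3 to 66.4 ± 20.6 RPKM (SD, n = 4 each). It had 116 RPKM in GF_JAX 1, on the JAX side of the midpoint, and 33.3 RPKM in GF_JAX 4, on the GF side.

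Bile acid synthesis gave 3 higher and 2 lower of 16 genes, near the shares over all genes (14.2% and 15.5%), all 5 on the GF side in GF_JAX 1 and 4. Without GF 2, 5 were higher, and without GF 4, 4 were lower. Cyp7a1, the rate-limiting enzyme, was at 81.2, 36.9, 29.2 and 70.7 RPKM in JAX and 18, 21.2, 9.37 and 5.92 RPKM in GF. The spread within each group was wide, but the groups did not overlap, with a log2 difference of -1.95 ± 0.40 (limma adjusted p = 0.00591). GF_JAX 1 and 4 had 13.3 and 23.5 RPKM and GF_JAX 2, 3 and 5 had 12, 41 and 19.5 RPKM. Cyp8b1, the 12-hydroxylase of cholic acid synthesis, overlapped between the groups (-0.21 ± 0.18, limma adjusted p = 0.389). After multiplication by relative depth, Cyp8b1 reached 67.3% of the level shared by the most abundant genes (given below) in its highest of the 22 libraries. The size of its difference is therefore uncertain. Cyp2c70, which makes muricholic acids in the mouse, was at 61.7, 40.3, 42.1 and 41.5 RPKM in JAX and 251, 254, 214 and 261 RPKM in GF. It was far apart between the groups (2.39 ± 0.13, limma adjusted p = 6.08e-06), and JAX 1 was the highest JAX library. Its level was 206 and 203 RPKM in GF_JAX 1 and 4, TAC had 91.1 ± 50.5 RPKM (SD, n = 4), and the gene passed with slope type as a term (2.12 ± 0.30, limma adjusted p = 0.00456).

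Among 15 genes of bile acid transport and FXR signalling 2 rose and 3 fell (14.2% and 15.5% over all genes), and 1 rose without GF 3, GF 4 or JAX 4. Abcb11, the bile salt export pump, was at 81.8, 85.1, 81.5 and 84.2 RPKM in JAX and 118, 119.6, 112 and 141 RPKM in GF (0.55 ± 0.09, limma adjusted p = 0.00173). Klb, the coreceptor of FGF15, fell from 19.3, 17.1, 20.7 and 22 RPKM to 6.8, 9.62, 8.11 and 6.25 RPKM (-1.27 ± 0.14), but GF_JAX 1 and 4 had 21.2 and 22.7 RPKM, as JAX, and GF_JAX 2, 3 and 5 had 7.43, 11.3 and 5.07 RPKM, as GF. Of 14 genes of taurine and sulphur amino acids none rose and 2 fell in limma (1 and 3 at an unadjusted p under 0.05), against 15.5% of all genes lower. Without GF 2, 5 rose, and without any other library except GF 3 only 1 fell. Csad, which makes hypotaurine for taurine-conjugated bile acids, was at 344, 271, 283 and 315 RPKM in JAX and 139.9, 122, 111 and 133 RPKM in GF (-1.26 ± 0.11, limma adjusted p = 9.07e-05). In GF_JAX 1 and 4 it was 317 and 162 RPKM and 195, 268 and 259.6 RPKM in GF_JAX 2, 3 and 5, between the groups or at the JAX level in both slope types.

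Fat oxidation genes fell in part. Of 38 PPAR alpha, oxidation and ketogenesis genes none rose and 15 fell in limma (1 and 16 at an unadjusted p under 0.05), against 15.5% of all genes lower, with a median of -0.20. With slope type as a term the median was -0.07 and none passed in limma (3 lower at an unadjusted p under 0.05). In GF_JAX 4 of the 15 followed the slope type, on the JAX side in GF_JAX 1 and 4 and on the GF side in the others. Only 3 of the 15 lay on the GF side in both GF_JAX 1 and 4, and the other 8 were mixed. Pdk4, which blocks pyruvate oxidation, was at 20.3, 25.9, 17.7 and 16.8 RPKM in JAX and 5.01, 5.19, 8.07 and 6.62 RPKM in GF (-1.55 ± 0.17, limma adjusted p = 0.000277). Acot2, a mitochondrial thioesterase, was at 57.8, 61.7, 51.3 and 59.6 RPKM in JAX and 11.5, 10.7, 16.5 and 26.5 RPKM in GF (-1.84 ± 0.23, limma adjusted p = 0.000469). GF_JAX 1 and 4 had 8.19 and 6.64 RPKM of Pdk4 and 22 and 15.6 RPKM of Acot2, on the GF side. Pex11a, a peroxisome protein, differed by -1.07 ± 0.12 (limma adjusted p = 0.00033), but had 219 and 168 RPKM in GF_JAX 1 and 4, against 215 ± 21.8 RPKM (SD, n = 4) in JAX. Fgf21, a hormone of fasting, was at 66.5, 63.3, 67.2 and 54.3 RPKM in JAX and 0.595, 8.42, 14.3 and 30.0 RPKM in GF. The GF livers spread over a wide range but all stayed below JAX (-2.79 ± 0.69, limma adjusted p = 0.0131). Fgf21 had 30.9 RPKM in GF_JAX 1, on the JAX side of the midpoint, and 7.72 RPKM in GF_JAX 4, on the GF side.

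Of 17 lipid droplet proteins and lipases 6 fell and 1 rose (2 without GF 2), against 15.5% of all genes lower and 14.2% higher, with a median of -0.33. Of these calls 2 lay on the GF side in both GF_JAX 1 and 4, 2 followed the slope type and 3 were mixed. Beside Cidec, Plin4, a droplet coat protein, was at 17.3, 13.3, 13.9 and 17.8 RPKM in JAX and 1.43, 2.43, 4.37 and 3.88 RPKM in GF (-2.10 ± 0.23, limma adjusted p = 0.000296). Plin4 had 9.67 RPKM in GF_JAX 1, on the JAX side of the midpoint, and 3.54 RPKM in GF_JAX 4, on the GF side. Fitm2, needed for droplet budding, was at 71.5, 84.5, 71.4 and 84.8 RPKM in JAX and 17.8, 35.6, 22.9 and 25 RPKM in GF. It was 60.5 and 59.6 RPKM in GF_JAX 1 and 4, nearer to JAX, and 23, 24.1 and 17.8 RPKM in GF_JAX 2, 3 and 5, as in GF.

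Of 18 fatty acid synthesis genes 4 were higher and 6 lower, against 14.2% and 15.5% of all genes. Thrsp, a lipogenic protein under thyroid hormone control, was at 51, 34, 43.8 and 44.8 RPKM in JAX and 203, 162, 119 and 94.2 RPKM in GF (1.67 ± 0.21, limma adjusted p = 0.000583). Acacb, the mitochondrial acetyl-CoA carboxylase, was at 23.6, 24.4, 20.5 and 27.8 RPKM in JAX and 10.1, 13.7, 8.12 and 11.3 RPKM in GF (-1.10 ± 0.15, limma adjusted p = 0.000883). Elovl5, an elongase of unsaturated fatty acids, differed by -0.97 ± 0.11 (limma adjusted p = 0.000341). Neither Thrsp nor Acacb overlapped between the groups, and GF_JAX 1 and 4 had 139 and 121 and 13.2 and 11.9 RPKM.

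Glycolysis and glycogen genes gave 5 higher and 4 lower of 22 (14.2% and 15.5% over all genes), and 2 higher without GF 1 or JAX 4 and 3 without GF 3, GF 4 or JAX 2. Among 20 genes of gluconeogenesis and fasting 2 rose and 7 fell, against the same shares, and 4 of these 9 followed the slope type in GF_JAX. Another 3 of the 9 lay on the GF side in both GF_JAX 1 and 4. Without GF 1, GF 3, GF 4 or JAX 2 only 1 rose, and without JAX 4 none rose in limma (3 higher at an unadjusted p under 0.05 with all libraries). Lepr was 1 of the 7.

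Of 25 male-biased genes of mouse liver 7 rose, against 14.2% of all genes, and none fell in limma (12 and 0 at an unadjusted p under 0.05), all 7 on the GF side in GF_JAX 1 and 4, with a median of 0.38 (0.19 after the length correction). Hsd3b5, a steroid dehydrogenase of male liver, was at 6.56, 24.5, 8.46 and 8.39 RPKM in JAX and 163, 180.0, 109 and 102 RPKM in GF. JAX 2 was the highest JAX library and was far below GF (3.56 ± 0.34, limma adjusted p = 0.000113). It reached 143 and 95.1 RPKM in GF_JAX 1 and 4, and with slope type as a term the difference was 2.83 ± 0.59 (limma adjusted p = 0.044). Selenbp2, a selenium-binding protein, was at 85.1, 92.4, 87.3 and 68.8 RPKM in JAX and 258, 251, 216 and 323 RPKM in GF (1.63 ± 0.13, limma adjusted p = 5.20e-05). Of 13 female-biased genes 7 rose and 3 fell (14.2% and 15.5% over all genes), Sult1e1 among those that rose. Only 1 fell when GF 1, JAX 1, JAX 3 or JAX 4 was left out. Of the female-biased genes called with all 8 libraries, 4 lay on the GF side in both GF_JAX 1 and 4. Another 2 followed the slope type and 4 were mixed.

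Acute phase proteins are secreted by hepatocytes in inflammation. Of 32 genes 12 rose, against 14.2% of all genes, and 1 fell (Il6st, not past the threshold without JAX 2 or JAX 4, against 15.5% of all genes), with a median of 0.43 (0.28 after the length correction). Of these calls 5 lay on the GF side in both GF_JAX 1 and 4, 1 followed the slope type and 7 were mixed. Saa1 was at 69.1, 107, 105 and 81.7 RPKM in JAX and 563, 379, 458 and 462 RPKM in GF (2.36 ± 0.16, limma adjusted p = 2.41e-05). Orm2 was at 9.17, 10.2, 13.8 and 12.1 RPKM in JAX and 74.5, 65.9, 51.8 and 58.7 RPKM in GF (2.37 ± 0.14, limma adjusted p = 6.14e-06). Both were far apart between the groups. In GF_JAX 1 and 4 Saa1 had 187 and 399 RPKM and Orm2 19.8 and 30.2 RPKM, against 336, 497 and 854 and 49.2, 71.8 and 82.2 RPKM in GF_JAX 2, 3 and 5. TAC had 157, 1040.0, 301 and 435 RPKM of Saa1, and TAC 2 was the highest TAC library also for Orm2, Saa4 and Lcn2. Saa1 has near-identical copies, so its reads may be split uncertainly. Saa4, a constitutive member, passed both fits, with 97.8, 106, 101 and 93.3 RPKM in JAX, 211, 241, 237 and 247 RPKM in GF and 184 and 196 RPKM in GF_JAX 1 and 4. Orm3 was among the 10 largest increases, with 0, 0.854, 4.09 and 2.31 RPKM in JAX and 49, 27.1, 59.5 and 47.3 RPKM in GF. In GF_JAX 1 and 4 Orm3 had 3.3 and 25.8 RPKM, the former within the JAX range. Lcn2, which binds bacterial siderophores and was picked after its values were seen, had 13.6, 7.1, 13 and 14.2 RPKM in JAX and 63.4, 42.6, 70.9 and 44.4 RPKM in GF, but 12.3 and 16.7 RPKM in GF_JAX 1 and 4, as in JAX.

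Of 16 genes of Toll-like receptors and lipopolysaccharide sensing 3 were higher and 2 lower, near the shares over all genes (14.2% and 15.5%). The 2 lower genes were receptors, Tlr12 and Tlr5, and the higher ones were Nfkbia, an inhibitor of NF-kB, and Ly96 and Tirap, an LPS coreceptor and an adaptor named after their values were seen. Tlr12, a receptor for profilin of protozoa in the mouse, was at 30.7, 26.6, 21.2 and 35.4 RPKM in JAX and 5.04, 4.46, 4.35 and 8.57 RPKM in GF. GF 4 was the highest GF library and still below JAX (-2.18 ± 0.20, limma adjusted p = 0.000113). The level was 7.55 and 4.06 RPKM in GF_JAX 1 and 4, and with slope type as a term the difference was -2.28 ± 0.37 (limma adjusted p = 0.0105). Tlr5, the flagellin receptor, was at 6.14, 6.37, 5.4 and 7.3 RPKM in JAX and 1.03, 2.43, 1.96 and 2.18 RPKM in GF, but 5.15 and 5.29 RPKM in GF_JAX 1 and 4, near JAX. Of 37 interferon-stimulated genes 1 rose and 5 fell, against 14.2% and 15.5% of all genes (9 without GF 2, 3 without GF 3 or JAX 2), and up to 3 rose without GF 2, GF 3 or JAX 3, and Dhx58, a regulator of RNA sensing, differed by -0.78 ± 0.14 (limma adjusted p = 0.00357). Of 23 antigen presentation genes 4 rose and 1 fell, against the same shares, and 10 rose without GF 2 and 2 without GF 1. Cd74, the invariant chain, rose by 0.73 ± 0.18 (limma adjusted p = 0.0136), although JAX 2 reached the GF range, with 118 and 133 RPKM in GF_JAX 1 and 4 against 109 ± 18.4 in GF (SD, n = 4). Psmb10, an immunoproteasome subunit, rose by 0.75 ± 0.13 but had 61.5 and 62 RPKM in GF_JAX 1 and 4, near its 55.1 ± 5.26 RPKM in JAX (SD, n = 4).

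The levels of markers of other cells were read beside these lists. In bulk tissue, more cells of a type and more RNA per cell cannot be told apart. Of 17 tested Kupffer cell and macrophage markers 10 rose and 1 fell, against 14.2% of all genes higher and 15.5% lower, and their summed level over 19 listed markers was 241 to 420 RPKM in JAX and 395 to 524 RPKM in GF. All 10 lay on the GF side in GF_JAX 1 and 4, and none passed in limma with slope type as a term (4 at an unadjusted p under 0.05). C1qa was at 35.2, 73.1, 47.9 and 56.3 RPKM in JAX and 125, 83, 97.1 and 93.9 RPKM in GF (0.93 ± 0.20, limma adjusted p = 0.00695), and Lyz2 at 23, 40.9, 24.8 and 36.5 and 58.5, 64.7, 49.3 and 56 RPKM. JAX 2 was the highest JAX library for both. The marker that fell was Slc40a1, the iron exporter (-0.71 ± 0.15, limma adjusted p = 0.00748), at 66.8 and 63.5 RPKM in GF_JAX 1 and 4, above JAX. Leaving out JAX 4 lowered the 10 to 4, leaving out GF 1, JAX 1 or JAX 3 lowered it to 5 and leaving out GF 3 to 6, and rescaling to a common sum lowered it to 2.

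Of 17 sinusoidal endothelial markers 6 rose, against 14.2% of all genes, and none fell in limma (7 and 0 at an unadjusted p under 0.05), Stab2 by 0.63 ± 0.11 (limma adjusted p = 0.00337), with summed levels of 231 to 315 RPKM in JAX and 308 to 341 RPKM in GF. Of 18 stellate cell and fibroblast markers 6 rose, again against 14.2%, and none fell in limma (7 and 1 at an unadjusted p under 0.05), and 3 rose without GF 1, GF 4, JAX 1 or JAX 4, with summed levels of 245 to 331 and 353 to 451 RPKM. After rescaling to a common sum 0 of the 17 endothelial and 2 of the 18 stellate markers were past the threshold as higher, against 6.15% of all genes. All 6 endothelial calls lay on the GF side in GF_JAX 1 and 4. Of the 6 stellate calls 2 did so and 4 were mixed. Both tested pancreas markers, Cela1 and Cela2a, rose and followed the slope type. Cela1, an elastase, was at 18.7, 18, 18.6 and 12.3 RPKM in JAX, 59.7, 59.4, 44 and 42.1 RPKM in GF and 26.5 and 21.2 RPKM in GF_JAX 1 and 4, while Prss1, Prss2, Cela3b, Amy2a5, Ins1 and Ins2 were listed at 0 in GF and JAX. The pancreas markers summed to 14.7 to 24.4 RPKM in JAX and 49 to 66.6 RPKM in GF.

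Markers of T and NK cells summed to 3.41 to 11.9 RPKM in JAX and 13.2 to 24.5 RPKM in GF over 17 listed markers, without overlap. Of the 4 that were tested Gzma and Ccl5 rose, and both lost the threshold without GF 1, GF 3, GF 4 or JAX 4. Adipose markers summed to 331 to 424 RPKM in JAX and 438 to 665 RPKM in GF, also without overlap, and most of this was Car3, which did not pass. Of the 3 tested Fabp4, a fatty acid carrier, rose and Cfd, adipsin, fell, while Lep and Ucp1 were listed at 0 in GF and JAX. The summed markers of B cells, neutrophils, cholangiocytes, gut epithelium and skeletal muscle overlapped between the groups. The part of these cell types in the changes of other lists was not tested.

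Some of the largest differences followed the slope type of the library. Tgoln2, a trans-Golgi protein, was at 43.7, 47.9, 32.9 and 59.9 RPKM in JAX and 0, 4.29, 0 and 0.00541 RPKM in GF, but 38.9 and 51.9 RPKM in GF_JAX 1 and 4 and 0.00232, 2.62 and 0 RPKM in GF_JAX 2, 3 and 5. TAC had 61.9, 25.2, 55.2 and 68.6 RPKM and GF_TAC 0, 0.00598, 0, 0 and 0.00421 RPKM. Its difference was -0.02 ± 0.85 with slope type as a term, against -4.92 ± 0.48 without it. Abhd2, a lipase of the abhydrolase family, gave 26.8 and 39.3 RPKM in GF_JAX 1 and 4 and 5.59, 3.52 and 3.89 RPKM in GF_JAX 2, 3 and 5, with -3.00 ± 0.27 between GF and JAX. Rsc1a1 was the largest increase, at 7.15, 0, 0.00415 and 0 RPKM in JAX and 41.2, 14.1, 50.8 and 47 RPKM in GF. It was listed at 0 in GF_JAX 1 and 4 and at 40.5, 17.4 and 45 RPKM in GF_JAX 2, 3 and 5. Rhbg, an ammonium transporter, rose by 1.37 ± 0.14 and had 16.7 and 23.8 RPKM in GF_JAX 1 and 4 against 35, 34.6 and 40.8 RPKM in the others. Apob and Mttp, needed to assemble very low density lipoprotein, differed by -0.75 ± 0.12 and -0.47 ± 0.10 (limma adjusted p = 0.00201 and 0.00673). GF_JAX 1 and 4 had 267 and 366 RPKM of Apob and 155 and 153 RPKM of Mttp, above every JAX library, with means of 186 ± 22.7 and 140.1 ± 7.46 RPKM there (SD, n = 4 each).

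Short housekeeping transcripts showed the same dependence. All 30 tested ribosomal protein genes lay above 0 with a median of 0.45, and 2 passed (16 at an unadjusted p under 0.05). Without GF 2, 28 passed, without JAX 1 it was 3, and without any of the others none passed in limma. The median was 0.11 after the length correction and 0.14 with slope type as a term. Of 30 respiratory chain genes 28 lay above 0 with a median of 0.35, and 1 passed in each direction (21 higher without GF 2). That median was 0.04 after the length correction and -0.01 with slope type as a term.

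A few genes were read for GF_JAX livers between the groups or at the JAX level. Gpx6, a glutathione peroxidase, was at 0.379, 1.14, 0.548 and 0.619 RPKM in JAX and 13.3, 8.36, 12.2 and 8.65 RPKM in GF (2.79 ± 0.20, limma adjusted p = 2.41e-05). GF_JAX 1 and 4 had 3.54 and 2.4 RPKM and GF_JAX 2, 3 and 5 had 1.52, 1.29 and 3.11 RPKM, above JAX and far below GF. Gpx6 passed both fits. Ces2e, a carboxylesterase, was at 128, 126, 121 and 123 RPKM in JAX and 87.5, 93.4, 86.5 and 76.5 RPKM in GF (-0.53 ± 0.08, limma adjusted p = 0.0016). Its level in GF_JAX 1 and 4 was 142 and 115 RPKM and 122, 136 and 131 RPKM in GF_JAX 2, 3 and 5, as in JAX. Dbp, a clock output factor, fell from 3.8, 4.1, 7.26 and 3.99 RPKM to 3.29, 1.41, 1.33 and 1.33 RPKM, and was 3.81 and 5.17 RPKM in GF_JAX 1 and 4 and 16.1, 3.23 and 8.02 RPKM in the others. In all, 5 of 19 clock genes fell and 1 rose, against 15.5% and 14.2% of all genes (3 fell without GF 1, GF 3 or JAX 2, and the rise passed only without GF 2 or JAX 3), and their median turned from -0.25 to 0.20 with slope type as a term. Hspa1b, an inducible heat shock protein, fell from 65.7, 68.4, 59.8 and 64.9 RPKM to 15, 18.3, 20.1 and 10.5 RPKM and passed both fits. It had 37.1 and 20.2 RPKM in GF_JAX 1 and 4 and 56.6, 27.6 and 20.9 RPKM in GF_JAX 2, 3 and 5, spread from just above GF to just below JAX. Of 25 heat shock and immediate early genes 2 rose and 6 fell, against the same 14.2% and 15.5% (4 rose without JAX 3, and 1 without GF 3, GF 4, JAX 2 or JAX 4). Hspa1b has a near-identical copy, so its level is uncertain.

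Serpine2, a serine protease inhibitor, and Prg4, lubricin, were picked from the 72 genes after their values were seen. Serpine2 was at 11.7, 12, 8.91 and 9.71 RPKM in JAX and 44.2, 35.2, 38.3 and 51.1 RPKM in GF (1.90 ± 0.13, limma adjusted p = 2.41e-05), with 36.4 and 29.2 RPKM in GF_JAX 1 and 4 and 31.3 ± 2.99 RPKM in TAC (SD, n = 4). Prg4 was at 9.84, 11, 10.7 and 10.9 RPKM in JAX and 40.9, 33.1, 34.3 and 33.9 RPKM in GF (1.65 ± 0.09, limma adjusted p = 6.08e-06), with 23.9 and 25 RPKM in GF_JAX 1 and 4. The pseudogene Cyp2c53-ps was listed at 0 in all 4 JAX and all 4 TAC libraries and at 2.13, 5.25, 7.92 and 3.69 RPKM in GF, and it passed both fits.

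Genes known to differ between C57BL/6 substrains were read as a check of the mice. Nnt, the mitochondrial transhydrogenase, carries a deletion of several exons in the Jackson substrain C57BL/6J. It was at 42.8, 42.3, 41.5 and 44.1 RPKM in JAX and 53, 60.8, 55.8 and 58.5 RPKM in GF (0.41 ± 0.07, limma adjusted p = 0.00304). Within the shallow slope, TAC had 84.7, 70.0, 89.8 and 84.3 RPKM and GF_JAX 1 and 4 had 84.1 and 88.4 RPKM, well above JAX. Within the steep slope, GF_JAX 2, 3 and 5 had 57.1, 55.7 and 51.5 RPKM and GF_TAC 59.9, 63.3, 56.4, 55.7 and 64.3 RPKM, at the level of GF. The difference between GF and JAX was 1.05 ± 0.11 with slope type as a term (limma adjusted p = 0.0018). Ide, the insulin-degrading enzyme, fell from 40.9, 58.9, 52.5 and 55.3 RPKM to 31.3, 34.8, 29.8 and 28.5 RPKM (-0.71 ± 0.12, limma adjusted p = 0.00198), with 36.7 and 32.4 RPKM in GF_JAX 1 and 4 and 35.5 ± 2.85 RPKM in TAC (SD, n = 4). Wdfy1 and Entpd4 did not pass, at 0.17 ± 0.17 and -0.31 ± 0.14 (limma adjusted p = 0.473 and 0.122). Microbes and strain background of GF against JAX cannot be told apart in this comparison.

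**Figure D5:**
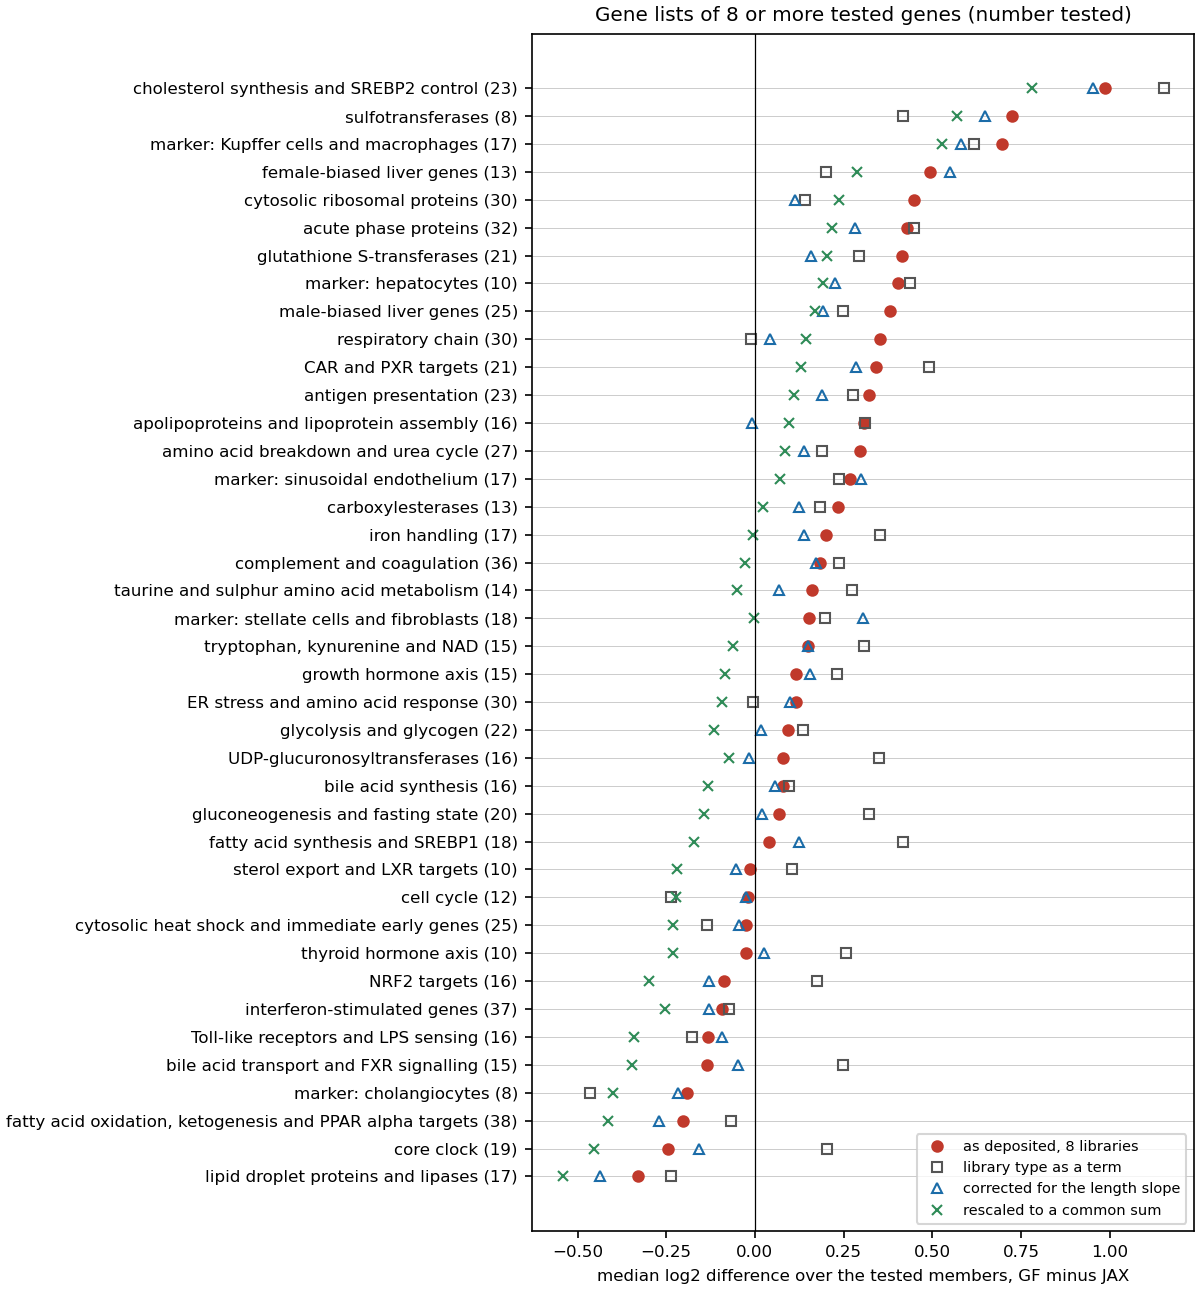
Median log2 difference GF minus JAX over the tested members of 40 gene lists, as deposited (filled circles), with slope type as a term (squares), after the length correction (triangles) and after rescaling to a common sum (crosses). Cholesterol synthesis is highest under all 4, and the clock list turns from -0.25 to 0.20 with slope type as a term.

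The most abundant genes could not be compared. Alb, Apoa1 and Apoe, the main secreted proteins of hepatocytes, had an RPKM that was lower in deeper libraries, and after multiplication by relative depth their levels varied by 2.13%, 1.93% and 1.55% (coefficient of variation, n = 22). Their log2 differences were 0.40 ± 0.27, 0.42 ± 0.28 and 0.42 ± 0.27, with limma adjusted p between 0.25 and 0.285. Of 427 tested genes over 50% of that shared level in their highest of the 22 libraries 62 were among the calls, against 29.7% of all tested genes. The 62 include Saa1, Apoa4, Cyp2c29 and Cyp1a2, which reached 99.1%, 80.4%, 77.5% and 68.2% of it. Csad, Cyp2b10 and Fdps reached 52.4%, 51.5% and 51.5%. These shares are the highest over all 22 libraries. That of Saa1 was reached in TAC 2 and those of Cyp2c29 and Cyp2b10 in GF_TAC 5, outside the comparison. For these genes the share within GF and JAX was lower. The size of the differences of all the genes named here is therefore uncertain, to a degree that differs between them. Of 12 cell cycle genes none passed in limma, and 2 were lower at an unadjusted p under 0.05.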

How the data were processed

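Poly(A) RNA of 22 livers was sequenced, and 8 libraries (GF 1 to 4, JAX 1 to 4) entered the comparison. The deposited table gives RPKM per gene symbol. Per the submitters' processing notes, the tools include Bowtie 1.0.0 and Cuffdiff 2.1.1 and the build is mm9. The annotation and the treatment of reads that share a start are not given in the sources used here. Of 24397 rows 461 were named 0 and 27 held date numbers, and both kinds were left out. The members and gene lists were chosen with earlier results of these data known.

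Genes at 1 RPKM or more in at least 4 of the 8 libraries were tested on log2(RPKM + 1) with limma 3.58.1 (trend, two-sided, R 4.3.3). Benjamini-Hochberg adjustment ran over all 11471 genes, with a threshold of 0.05. Fold changes are of RPKM + 1 and understate low genes. Tables and plots used Python 3.11.15, numpy 2.4.6, pandas 2.3.3 and matplotlib 3.10.9. The fits were tested on simulated data.

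RPKM carry no depth. Since low values are whole multiples of what 1 read is worth, relative depth was read from the ratio to JAX 1 of 339 to 441 low genes per library. As a check, 85.0% of 4407 low genes gave whole reads within 0.02 reads after scaling by that depth. After random rescaling 0.953% did so. JAX 1 held 2.26 M reads (quartiles 2.02 to 2.37 M over 3256 genes). Length slopes used 7807 genes and GENCODE vM21 transcript lengths, found for 95.5% of tested genes. Within GF and within JAX no library was a copy of another, and other pairs of libraries were not checked.

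Named genes were the 10 largest increases and 10 largest decreases without overlap, up to 3 passing members of each list with the smallest p, and 11 fixed genes. Predicted genes and the Mup family were left out of the 20. Genes outside this rule are marked, and a few genes are not reported here. Alternatives were pseudocounts, filters, rescaling to a common sum (TPM), length and depth corrections, slope type, weights, the replicate block and each library left out. No label pairs GF with JAX samples, and they were treated as unpaired. The correlation of deviations was 0.02, 0.22, -0.05 and 0.01 for equal replicate numbers, and -0.21 to 0.18 for unequal ones. These values cannot settle whether equal numbers pair the samples.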

Additional observations from a re-analysis of the deposited data

Results flagged for a closer look

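Of 170 groups of 4 libraries checked for the 85 genes, 19 held a library far from the other 3 (a gap to its neighbour above Dixon's 95% limit of the group's range), where chance flags about 1 in 20 groups.

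In JAX 1, Lepr was low at 3.97 RPKM and still did not reach the GF range. Abcg8 was low there at 38.3 RPKM, and Ugt1a9 at 59.1, Cyp2c70 at 61.7 and Rsc1a1 at 7.15 RPKM were high. In JAX 2, Cyp2b10 was low at 4.48 RPKM, Gstt3 at 50.7 and Lcn2 at 7.1 RPKM, and Hsd3b5 was high at 24.5 RPKM. In JAX 3, Sult1e1 stood at 0.823 RPKM and Dbp at 7.26 RPKM, above the other 3 libraries. In JAX 4, Cela1 was low at 12.3 RPKM, and Wdfy1 at 10.8 and Gal3st1 at 26.5 RPKM were high.

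Among the GF libraries, GF 1 was high for Dbp at 3.29 RPKM and for Prg4 at 40.9 RPKM. GF 2 was high for Srebf2 at 36.1 RPKM and for Tgoln2 at 4.29 RPKM. GF 4 was high for Tlr12 at 8.57 RPKM.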

How the results depend on the processing

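The 3405 calls were 88 with slope type as a term (30 higher, 58 lower) and 249 with it in 1 fit on all 22 libraries (87 higher, 162 lower). The median standard error was 0.246 in the fit of 13 libraries with that term, against 0.142 in the fit of 8 libraries. Rescaling to a common sum gave 706 higher and left the total at 3130. Leaving out 1 library gave 2051 to 4592 calls, 977 to 2346 higher and 1074 to 2246 lower, lowest without JAX 4 and highest without GF 2. Other settings gave 2686 to 4567 calls, and the replicate block 3995 (2130 higher, 1865 lower), which moved neither direction's total by over 1.5 times. It moved the higher or the lower count by more than that in 21 of 48 lists, to more calls except for T and NK markers (2 to 1 higher) and taurine genes (2 to 1 lower, 0 to 3 higher). Ribosomal proteins went from 2 to 28 higher, the respiratory chain from 1 to 18, complement and coagulation from 6 to 12, glutathione S-transferases from 8 to 14 and male-biased genes from 7 to 12, and bile acid synthesis from 3 to 5 higher and 2 to 4 lower. No label says that equal replicate numbers pair the samples.

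Of the 85 genes with values in the text, 34 kept direction and side of the threshold with slope type as a term, 45 lost the threshold and 6 turned sign. The 6 turned to 0.56 (Apob), 0.13 (Mttp), 0.16 (Klb), 0.79 (Srebf2), 0.95 (Hsd17b7) and -0.64 (Rsc1a1), alike in both fits with that term. The length correction turned Srebf2 to 0.16 and Hsd17b7 to 0.0075. Rescaling turned Stard4 to -0.15 and Wdfy1 to -0.020, library weights turned Stard4 to -0.031, and depth as a term turned Srebf2 to 0.13. With 1 library left out Stard4 ranged from -0.13 (without GF 2) to 0.35 (without GF 4), and Srebf2 from -0.17 (without GF 2) to 0.044 (without GF 1), where neither had passed. The causes were not tested. Depth of 1.39 to 3.75 M reads limits low genes, and RPKM of the most abundant genes lie at a shared level.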

Other observations

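Within the 72 genes that passed with and without slope type as a term, all 5 GF_JAX livers lay on the GF side of the midpoint in 38. These livers entered the fit that chose the 72. Amino acid breakdown and the urea cycle gave 6 of 27 genes higher and 3 lower, against 14.2% and 15.5% of all genes, and 12 higher without GF 2 and 3 without GF 1, JAX 2 or JAX 4, with a median log2 difference of 0.30 (0.14 after the length correction). Complement and coagulation gave 6 of 36 higher and 4 lower, near those shares (13 higher without GF 2, 3 without JAX 2 or JAX 4), and the unfolded protein and amino acid response gave 5 of 30 higher and 1 lower, against the same shares (2 higher without JAX 4). Erythroid markers summed to 342 to 456 RPKM in JAX and 419 to 683 RPKM in GF, and 1 of 5 rose (2 without GF 2, and none past the limma threshold without any other library except GF 3 and JAX 1, against 2 at an unadjusted p under 0.05).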
